A study of Mus musculus with 8 samples.

Results

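The genes described here were 9 members of the neurexin, neuroligin and cerebellin group of synaptic adhesion molecules, namely Nrxn2, Nrxn3, Nlgn1, Nlgn2, Nlgn3, Cbln1, Cbln2, Cbln4 and Lrrtm2. They were taken by gene symbol from the 31053 genes of the feature list, and all 9 were found there and had unique molecular identifier (UMI) counts. Single cells were captured from the prefrontal cortex (PFC) and the striatum of male C57BL/6N mice, given as 8 to 10 weeks old in the sample labels, whereas the study's methods state an older age for the dissociation. In each tissue, wild-type (WT) mice were compared with Setd1a+/- mice, which carry 1 frameshifted copy of the histone methyltransferase gene Setd1a, made by CRISPR-Cas9 and kept as 1 line. By the study's methods, the line was made in BDF1 zygotes and its founders were backcrossed to C57BL/6N before use. No treatment was given, and both genotypes share the strain, sex and dissociation protocol. Each genotype and tissue had 2 libraries, and each library pooled cells of 2 mice, so the library was the replicate. The striatal libraries are labelled as nucleus accumbens (NAc), while the study's results state that the tissue covered dorsal and ventral striatum, and they are called striatal here.

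Neurexins are presynaptic membrane proteins that reach across the synaptic cleft. Their postsynaptic partners include the neuroligins and the leucine-rich repeat protein Lrrtm2, and cerebellins are secreted proteins that bridge neurexins to delta-type glutamate receptors on the opposite side. Neuroligin 2 is known for its place at inhibitory synapses and neuroligin 1 for its place at excitatory synapses, whereas neuroligin 3 is found at both and is also made by glia. Neurexin genes have separate promoters for long and short protein forms, and their alternative splicing governs which partners bind.

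By the GENCODE vM21 annotation of GRCm38, to which all 9 members matched by identifier, the members range widely in size. Nrxn3 (chr12:88722876-90334935, plus strand) spans 1612.1 kb and Nlgn1 (chr3:25426215-26332460, minus strand) spans 906.2 kb. Cbln1 (chr8:87468405-87472609, minus strand) spans 4.2 kb and Cbln4 (chr2:172036233-172043466, minus strand) spans 7.2 kb. Nlgn2 lies at chr11:69823122-69837784 on the minus strand, Nlgn3 at chrX:101299168-101325963 on the plus strand and Nrxn2 at chr19:6418731-6544169 on the plus strand. Because these are 3'-end counts, a value stands for all forms of a gene together.

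Promoter sequences of 300 bases, 250 before and 50 after a transcription start, were available from RefSeq (GRCm38.p6) for 4 of the 9 members. Those of Cbln4, Nlgn2 and Nrxn3 are shown as examples of genes whose levels differed between cell types, tissues or library pairs in the results. Those of Nlgn1, whose levels also differed, are not shown. Capitals mark the motifs searched on both strands: the CAAT-box letters CCAAT, the GC-box letters GGGCGG, the E-box letters CANNTG, the octamer letters ATTTGCAT, the TATA-box letters TATAAA and the cyclic AMP response element TGACGTCA.
Cbln4, chr2:172043417-172043716, minus strand: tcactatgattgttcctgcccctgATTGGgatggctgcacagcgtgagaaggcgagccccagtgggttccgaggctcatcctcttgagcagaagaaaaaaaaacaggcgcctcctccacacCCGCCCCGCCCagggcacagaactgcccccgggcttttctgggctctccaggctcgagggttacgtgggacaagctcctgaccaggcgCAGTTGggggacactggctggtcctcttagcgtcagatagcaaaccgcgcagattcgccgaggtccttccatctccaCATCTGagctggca
Nlgn2, chr11:69837735-69838034, minus strand: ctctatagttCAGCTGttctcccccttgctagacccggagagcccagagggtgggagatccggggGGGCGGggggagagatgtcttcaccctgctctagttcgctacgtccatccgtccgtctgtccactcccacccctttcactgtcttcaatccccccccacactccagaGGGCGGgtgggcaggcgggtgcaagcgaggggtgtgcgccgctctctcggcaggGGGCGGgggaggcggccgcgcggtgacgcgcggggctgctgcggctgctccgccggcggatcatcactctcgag
Nrxn3 start 1, chr12:88794254-88794553, plus strand: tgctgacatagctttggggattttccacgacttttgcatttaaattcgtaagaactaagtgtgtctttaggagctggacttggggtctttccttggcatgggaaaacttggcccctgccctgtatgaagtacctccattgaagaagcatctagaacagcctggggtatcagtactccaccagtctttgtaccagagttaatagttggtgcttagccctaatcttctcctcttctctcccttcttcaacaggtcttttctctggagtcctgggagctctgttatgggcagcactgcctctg
Nrxn3 start 3, chr12:89812233-89812532, plus strand: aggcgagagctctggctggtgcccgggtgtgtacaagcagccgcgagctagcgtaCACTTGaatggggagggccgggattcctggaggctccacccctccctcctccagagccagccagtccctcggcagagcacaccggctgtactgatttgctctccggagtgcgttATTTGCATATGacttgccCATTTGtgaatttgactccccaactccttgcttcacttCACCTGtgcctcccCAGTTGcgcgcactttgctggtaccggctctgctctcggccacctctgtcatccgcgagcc
The Nlgn2 promoter was 68.7% G or C with 26 CpG dinucleotides, against a median of 52.7% and 7 over 32851 promoters, and held GGGCGG 3 times, a motif found in 35.7% of promoters. The Cbln4 promoter was 60.3% G or C with 15 CpG and held GGGCGG 2 times in overlapping copies and CCAAT once, a motif found in 37.4% of promoters. The table lists 3 starts for Nrxn3. Start 1 had 2 CpG and no match, whereas start 3 had 16 CpG, ATTTGCAT once, a motif in 1.74% of promoters, and CANNTG 5 times, of which 1 overlaps ATTTGCAT. CANNTG is in 72.3% of promoters, and neither TATAAA (13.6%) nor TGACGTCA (1.79%) matched in the sequences shown. The counts do not tell which start was used.

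The 8 libraries held 15154268 to 26277553 UMIs, and the authors' annotation kept 8997 cells of the PFC and 14690 of the striatum, 1508 to 4361 per library, with library medians of 2302.5 to 3042 UMIs per cell. Levels are given as CPM, the UMIs of a gene per 1000000 UMIs after adding up all cells of a type within 1 library, in the order WT 1, WT 2, Setd1a+/- 1 and Setd1a+/- 2, and SDs are over the 4 libraries of a tissue. Pairs of libraries shared 1 to 24 cell barcodes, up to 0.877% of the smaller library. The marker genes of each cell type were highest in that type, with 3 exceptions in the striatum: Gad2 and Slc32a1 were lower in interneurons than in D1 dopamine receptor-expressing medium spiny neurons (D1 MSN), and Ppp1r1b was higher in D2 MSN than in D1 MSN. Among excitatory subtypes, Etv1 was highest in DL-Tshz2 (1031 CPM) and not in DL-Etv1 (233 CPM), and Cux2 was higher in SL-Myh7 than in SL-Cux2. Over all annotated cells of the PFC, Setd1a was at 8.45 and 11.2 CPM in the WT libraries and 5.59 and 9.33 CPM in the Setd1a+/- libraries. The striatal WT libraries held 13.4 and 15.2 CPM and the striatal Setd1a+/- libraries 9.16 and 12.5 CPM, so that the mutant library was lower in each replicate. Since the cell types are clusters of these same cells, levels are compared between types without a test.

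**Figure D1:**
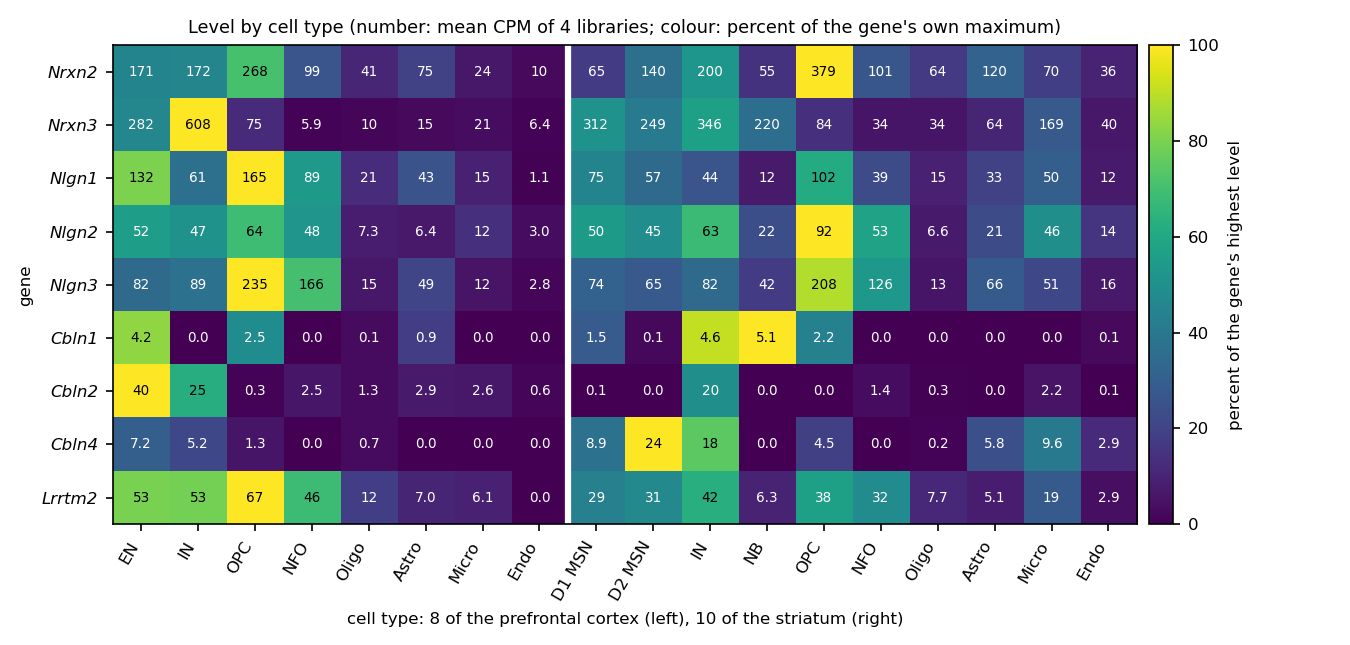
Mean CPM of the 9 members over the 4 libraries of a tissue, for 8 cell types of the PFC (left) and 10 of the striatum (right); the colour gives the percent of each gene's own highest level, so colours are not comparable between genes. Nrxn3 was highest in PFC interneurons (608), Nlgn3 in oligodendrocyte progenitor cells (235 and 208), and Cbln2 was near 0 outside PFC excitatory neurons and the interneurons of both tissues. EN, excitatory neuron; IN, interneuron; MSN, medium spiny neuron; NB, neural stem cells and neuroblasts; OPC, oligodendrocyte progenitor cell; NFO, newly formed oligodendrocyte; Oligo, oligodendrocyte; Astro, astrocyte; Micro, microglia; Endo, endothelial cell.

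Of the neurexins, Nrxn3 was highest in the interneurons of the PFC, at 480, 675, 630 and 645 CPM in the 4 libraries (mean 608 ± 87.1, n = 4). In excitatory neurons it was at 255, 303, 258 and 310 CPM. The ranges did not overlap, and the mean in interneurons was 2.16-fold higher. Glial levels were lower, from 74.9 ± 12.1 CPM in oligodendrocyte progenitor cells (OPC) to 5.91 ± 5.37 CPM in newly formed oligodendrocytes (NFO). In the striatum the order was interneurons (346 ± 43.3 CPM), D1 MSN (312 ± 49.5 CPM) and D2 MSN (249 ± 39.7 CPM), and neighbours in this order overlapped. Neural stem cells and neuroblasts, the immature cells of the striatal samples, held 220 ± 21.8 CPM of Nrxn3.

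Nrxn2 had another order, with OPC at the top in both tissues. Striatal OPC held 377, 365, 402 and 370 CPM, above every other striatal cell type in every library. Interneurons followed with 195, 183, 192 and 228 CPM (200 ± 19.7), and D2 MSN with 140 ± 17.5 CPM. In PFC OPC the values were 234, 344, 180 and 316 CPM (268 ± 75.5), a range that overlapped those of interneurons (172 ± 40.5 CPM) and excitatory neurons (171 ± 61.9 CPM). Within the same library, OPC were above excitatory neurons in 4 of 4, with a mean 1.57-fold higher. The wide spread in the PFC followed the replicate number and is described further on.

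Among the cell types, all 3 neuroligins had their highest mean CPM in OPC in both tissues. In the PFC, OPC overlapped excitatory neurons for Nlgn1 and Nlgn2, and were higher in 3 of 4 and 2 of 4 libraries. The excitatory subtype DL-Pou3f1, described further on, had higher means than PFC OPC for both genes (229 and 79.8 CPM). CPM is a share of UMIs, and library medians were 1403 to 1919 UMIs per cell in PFC OPC and 5732 to 9177.5 in excitatory neurons. In the striatum they were 1351 to 1729 in OPC and 2657 to 3664 in D1 MSN. A higher CPM in OPC, of Nrxn2 as well, therefore does not mean more UMIs per cell. Nlgn3 was at 232, 229, 233 and 246 CPM in PFC OPC (235 ± 7.56) and at 204, 207, 216 and 203 CPM in striatal OPC (208 ± 5.73). It stood 2.89-fold above PFC excitatory neurons (81.5 ± 6.31 CPM) and 2.79-fold above D1 MSN (74.4 ± 4.15 CPM), with no overlap. NFO, the next stage of the lineage, held 166 ± 13.8 CPM in the PFC and 126 ± 35.5 CPM in the striatum, and oligodendrocytes held 15.3 ± 4.23 and 13.1 ± 3.94 CPM. From OPC to oligodendrocytes the Nlgn3 level was thus 15.4-fold lower in the PFC and 15.9-fold lower in the striatum.

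Nlgn1 showed the same step with 165 ± 14.4 CPM in PFC OPC against 21.1 ± 10.2 CPM in oligodendrocytes, and Nlgn2 with 63.8 ± 33.6 against 7.31 ± 5.25 CPM. Among PFC neurons, Nlgn1 was at 127, 123, 132 and 148 CPM in excitatory neurons and at 54.3, 69.7, 73.2 and 46.3 CPM in interneurons, without overlap. Nlgn2 in the same cells did not separate, with 51.8 ± 20.6 CPM in excitatory neurons and 47.2 ± 22.1 CPM in interneurons. In striatal OPC, Nlgn2 reached 92.4 ± 11.2 CPM and Nlgn1 102 ± 3.56 CPM, which was above every other striatal type in every library for Nlgn1. For Nlgn2 the exception was 1 microglia library at 89.6 CPM, from 6 UMIs, above the lowest OPC value of 80.1 CPM.

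Cerebellin transcripts were sparse. Cbln2, which lies at chr18:86711110-86718283 on the plus strand, was found in PFC excitatory neurons at 45.6, 29.7, 43.8 and 41.7 CPM (737 UMIs) and in PFC interneurons at 8.57, 23.9, 31.1 and 36.4 CPM (40 UMIs). In the striatum, interneurons held 87 Cbln2 UMIs (20.1 ± 6.15 CPM), whereas 3904 D1 MSN held 1 and 2451 D2 MSN held 0, which allows up to 0.345 CPM in D2 MSN by counting error (3 UMIs over the 4 libraries). Cbln1 had 87 UMIs in PFC excitatory neurons (4.20 ± 1.65 CPM) and 0 in PFC interneurons, which allows up to 1.87 CPM. In the striatum Cbln1 had 21 UMIs in interneurons, 18 in D1 MSN, 1 in D2 MSN and 5 in neural stem cells and neuroblasts. D1 MSN were at 2.06, 1.03, 2.00 and 0.734 CPM, from 7, 5, 4 and 2 UMIs, and D2 MSN at 0.417, 0, 0 and 0 CPM. D1 MSN were higher in each library without overlap of the values, but the 0s allow 0.968 to 2.34 CPM by counting error (3 UMIs per library), which reaches the D1 MSN levels.

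Lrrtm2, a postsynaptic neurexin ligand that lies inside Ctnna1 on the opposite strand (chr18:35209003-35215024, minus strand), had PFC means of 66.7 ± 22.7 CPM in OPC, 53.3 ± 18.0 CPM in excitatory neurons and 52.7 ± 33.8 CPM in interneurons, and these ranges overlapped. The means were lower in oligodendrocytes (12.3 ± 7.29 CPM), astrocytes (6.96 ± 4.86 CPM) and microglia (6.12 ± 5.23 CPM). In PFC interneurons 1 library stood apart, with 103 CPM in WT 1 against 33.9, 31.1 and 43.0 CPM in the others. In the striatum its levels ran from 41.9 ± 3.48 CPM in interneurons to 2.86 ± 0.704 CPM in endothelial cells, and 0 UMIs were found in the 1562 endothelial cells of the PFC, which allows up to 0.667 CPM.

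The excitatory neurons of the PFC were split by the authors into 7 subtypes, named for a deep (DL) or superficial (SL) layer and a marker gene. The subtypes with the highest cerebellin levels differed between genes in part. DL-Nnat held 47.1% of the Cbln1 UMIs of excitatory neurons (41 of 87) with 16.7% of the cells. DL-Etv1, with 13.8% of the cells, held 46.0% of the Cbln1 UMIs (40 of 87) and 29.9% of the Cbln4 UMIs (40 of 134). Library medians were 9570 to 14540 UMIs per cell in DL-Etv1, against 5732 to 9177.5 in all excitatory neurons. Cbln2 was at 170, 105, 185 and 152 CPM in DL-Tshz2 (153 ± 34.4), above every other subtype in every library, since the next highest single value was 58.4 CPM in DL-Pou3f1, from 3 UMIs. DL-Tshz2 made up 11.0% of excitatory neurons and held 29.4% of their Cbln2 UMIs (217 of 737). A Cbln2 UMI was seen in 46.2 ± 11.1% of DL-Tshz2 cells and in 0.177 ± 0.144% of PFC endothelial cells, whose library medians were 3652 to 6097.5 and 2124 to 2756 UMIs per cell. With each cell thinned to 1000 UMIs, the shares were 16.8 ± 8.01% and 0.0480 ± 0.0960%.

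Cbln1 and Cbln4 each had 0 UMIs in the 304 DL-Tshz2 cells, which allows up to 2.16 CPM. Of the Cbln1 UMIs of excitatory neurons outside DL-Etv1, 41 were in DL-Nnat, and SL-Cux2 and SL-Myh7 had 0, which allows up to 0.760 and 2.21 CPM. The levels were 6.75, 16.4, 6.63 and 5.71 CPM in DL-Etv1 and 15.7, 13.3, 9.04 and 9.01 CPM in DL-Nnat, and these overlapped. Cbln4 had 72 of its 134 UMIs (53.7%) in SL-Cux2, which made up 22.6% of the cells, at 10.0, 19.9, 16.3 and 23.5 CPM. DL-Etv1 followed with 1.35, 6.43, 11.0 and 19.0 CPM (40 UMIs), a range that overlapped SL-Cux2, although SL-Cux2 was higher within each library.

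Lrrtm2 was highest in DL-Foxp2, at 139, 73.9, 117 and 82.2 CPM (103 ± 30.4), and DL-Foxp2 held 46.1% of its UMIs in excitatory neurons with 26.8% of the cells. Within each library the value in DL-Foxp2 was above that in every other subtype (in WT 1, 139 CPM against 134 CPM in DL-Pou3f1, which there rested on 8 UMIs). The neurexins and neuroligins had shallower profiles. Nrxn3 was at 365 ± 73.9 CPM in DL-Foxp2 and 132 ± 37.0 CPM in DL-Tshz2. Nlgn1 ran from 229 ± 37.5 CPM in DL-Pou3f1, a subtype of 62 cells, through 183 ± 30.5 CPM in SL-Myh7 and 165 ± 10.4 CPM in SL-Cux2 to 80.3 ± 19.9 CPM in DL-Foxp2 and 65.8 ± 11.6 CPM in DL-Tshz2. The 2 lowest Nlgn1 subtypes overlapped each other and did not overlap the others. For Nlgn2 and Nlgn3 every pair of neighbours in the order of subtypes overlapped.

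**Figure D2:**
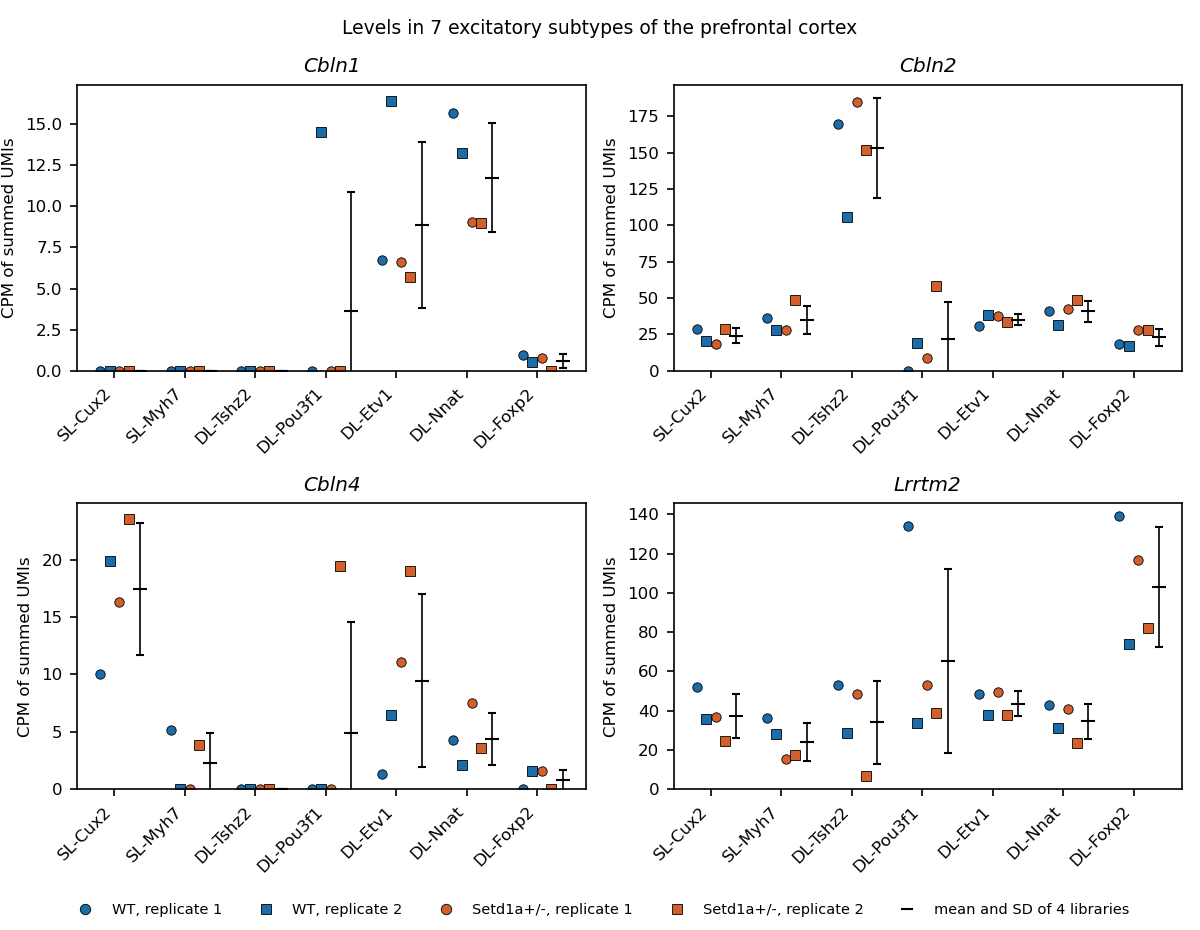
CPM of Cbln1, Cbln2, Cbln4 and Lrrtm2 in the 7 excitatory subtypes of the PFC, with 1 point per library (colour, genotype; shape, replicate) and bars for the mean and SD of 4 libraries. Cbln2 peaked in DL-Tshz2 (105 to 185 CPM), Cbln1 in DL-Etv1 and DL-Nnat, Cbln4 in SL-Cux2 (10.0 to 23.5 CPM) and Lrrtm2 in DL-Foxp2 (73.9 to 139 CPM).

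Interneurons were further assigned to a class where 1 of the markers Sst, Pvalb, Vip, Lamp5 and Chat had at least 3 UMIs in a cell and at least 2 times the next. In the PFC this gave 98 Sst, 77 Lamp5, 53 Vip and 12 Pvalb cells, with 58 of 298 unassigned. Of the 40 Cbln2 UMIs of PFC interneurons, 34 were in Vip cells. The pooled level was 176 CPM in Vip cells, with 41.1, 281, 180 and 162 CPM in the 4 libraries, against 5.01 CPM in Sst cells and 2.03 CPM in Lamp5 cells. A Cbln2 UMI was found in 32.1% of Vip cells (95% Wilson interval 21.1 to 45.5%, counting error only) and in 1.30% of Lamp5 cells, and after thinning in 13.2% and 0%.

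Nrxn3 in the same classes had a pooled level of 798 CPM in Sst cells, 700 CPM in Vip cells and 422 CPM in Lamp5 cells, and Sst exceeded Lamp5 in every library. Nlgn1 had the opposite order for Lamp5 and Sst, with 97.3 and 33.4 CPM, and Lamp5 was higher in every library. Lrrtm2 was at 85.1 CPM in Lamp5 cells and 21.7 CPM in Sst cells, again higher in Lamp5 cells in every library. In the striatum 665 of 821 interneurons were unassigned, and the 99 Sst cells held 22 of the 81 Cbln4 UMIs of interneurons (38.9 CPM pooled, with 20.9, 59.0, 5.86 and 71.2 CPM in the libraries).

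The 2 classes of striatal projection neurons did not overlap in Nrxn2 and Cbln4, nor in Cbln1, which was lower in D2 MSN from the few UMIs given above. The share of all genes without overlap between these 2 classes is not given here. Nrxn2 was at 62.6, 58.1, 80.9 and 59.8 CPM in D1 MSN and at 132, 123, 141 and 164 CPM in D2 MSN, which was 2.14-fold higher, in 4 of 4 libraries and without overlap. Cbln4 was at 8.23, 8.48, 7.49 and 11.4 CPM in D1 MSN and at 28.0, 22.6, 18.0 and 27.0 CPM in D2 MSN, 2.69-fold higher, again in 4 of 4 libraries without overlap. Nrxn3 and Nlgn1 were lower in D2 MSN in each of the 4 libraries, with D2-to-D1 ratios of 0.799 and 0.768, although the ranges over libraries overlapped. The ratios of Nlgn2 (0.901), Nlgn3 (0.877) and Lrrtm2 (1.08) were smaller than the spread between libraries.

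**Figure D3:**
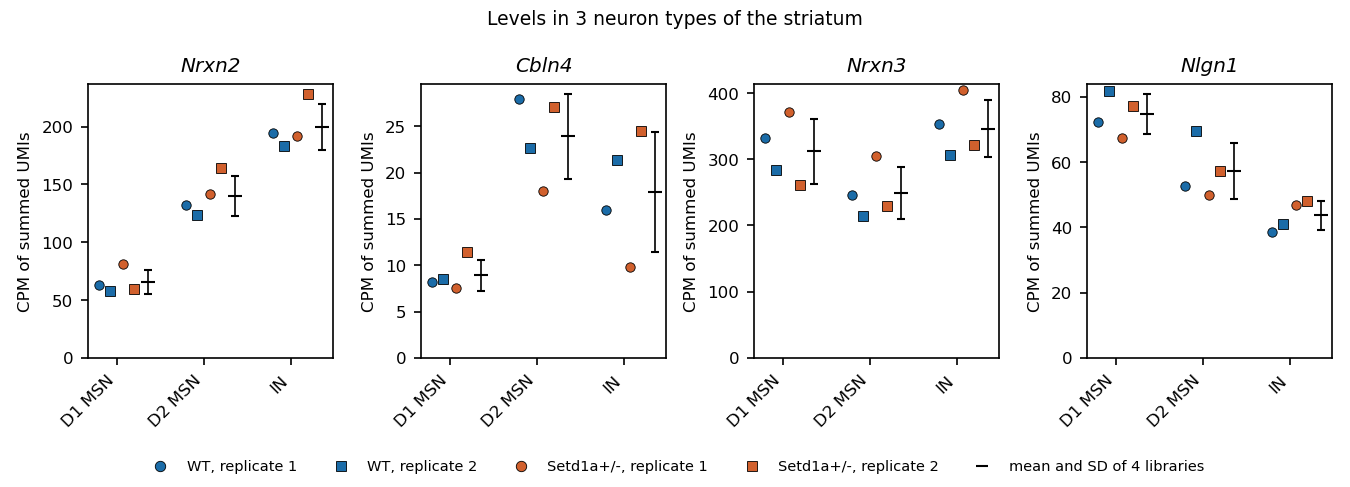
CPM of Nrxn2, Cbln4, Nrxn3 and Nlgn1 in D1 MSN, D2 MSN and interneurons of the striatum, with 1 point per library and bars for the mean and SD of 4 libraries. The 4 D2 MSN values of Nrxn2 (123 to 164 CPM) and of Cbln4 (18.0 to 28.0 CPM) sit above all D1 MSN values, while those of Nrxn3 and Nlgn1 overlap.

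The level of several members in the PFC followed the replicate number rather than the genotype. Nrxn2 in excitatory neurons was at 123 and 113 CPM in the replicate 1 libraries of WT and Setd1a+/- and at 209 and 237 CPM in those of replicate 2, a 1.89-fold difference. In the 7 PFC cell types in which Nrxn2 could be tested, replicate 2 was above replicate 1 without overlap in 7, and in the 6 tested subtypes in 6. Over all gene-by-type pairs tested in the PFC, replicate 2 was above replicate 1 without overlap in 18.7% and below in 28.5%, and the shares in the subtypes were 18.3% and 28.9%. Nlgn2 in excitatory neurons was at 40.0 and 28.9 CPM in replicate 1 and at 68.7 and 69.8 CPM in replicate 2, 2.01-fold higher.

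Lrrtm2 in the same excitatory neurons went the other way, with 73.9 and 61.4 CPM in replicate 1 and 44.7 and 33.2 CPM in replicate 2, and it was lower in replicate 2 without overlap in 2 of 5 tested cell types and in 5 of 5 tested subtypes. Nlgn3 in OPC showed no such split. Droplets with at most 100 UMIs, which mostly hold free RNA, had 73.1 and 72.4 CPM of Nrxn2 in replicate 1 and 149 and 162 CPM in replicate 2, and 12.6 and 9.76 against 41.8 and 48.1 CPM of Nlgn2. Slc17a7, a marker of excitatory neurons, was at 101 and 78.5 against 390 and 389 CPM in the same droplets. Over all annotated cells it was at 100 and 76.6 against 332 and 297 CPM. In the droplets, Lrrtm2 was at 26.4 and 20.3 against 19.1 and 18.5 CPM. Snap25, a marker of all neurons, was at 2372 and 2670 against 3149 and 2817 CPM, and Gad1, a marker of inhibitory neurons, at 82.6 and 160 against 144 and 87.9 CPM, so that the replicates overlapped for Gad1. The part of free RNA in the difference between replicates was not tested. In the striatum, Nrxn2 was above without overlap in replicate 2 in 1 of 10 cell types and below in 2, against 20.7% and 21.6% of all gene-by-type pairs tested there. Striatal Nrxn3 was above in 5 of 9 tested cell types and below in 4, and Nlgn1 was above in 5 of 8 and below in 1. Over the striatal tests of all members, the shares were 29.6% above and 20.4% below.

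**Figure D4:**
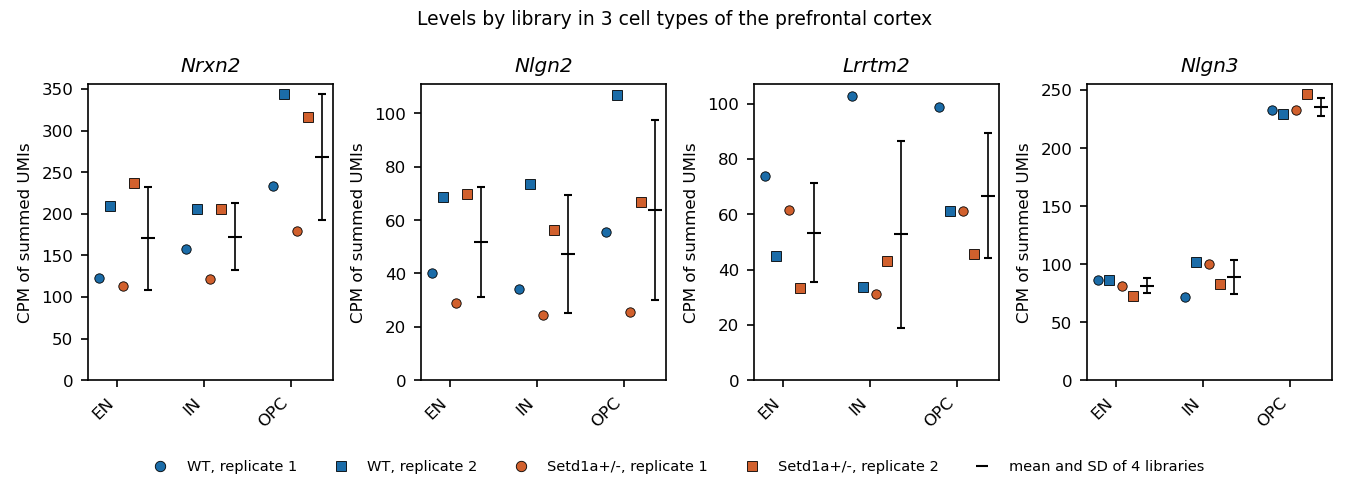
CPM of Nrxn2, Nlgn2, Lrrtm2 and Nlgn3 in excitatory neurons, interneurons and OPC of the PFC, with 1 point per library (colour, genotype; shape, replicate) and bars for the mean and SD of 4 libraries. The replicate 2 libraries (squares) lie above the replicate 1 libraries (circles) for Nrxn2 and Nlgn2 in all 3 cell types and below them for Lrrtm2 in excitatory neurons, and the Nlgn3 values of OPC lie between 229 and 246 CPM.

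The 2 tissues were compared in the 7 cell types annotated in both, with edgeR's quasi-likelihood test on summed UMIs and genotype as a covariate, and a gene was called at an adjusted p under 0.05 and a fold above 1.5. Of 35 member-by-type tests, 9 were called, 8 higher in the striatum and 1 lower. The background over all genes and types was 7.37% called, 4.65% higher and 2.72% lower in the striatum. Shares within single cell types are not given here, so a count within 1 type cannot be set against these. The median log2 fold change of the members was 0.24, against -0.01 over all tests. No library held both tissues, so tissue and library preparation cannot be told apart.

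In interneurons, Nrxn3 was lower in the striatum, with 354, 306, 404 and 322 CPM against 480, 675, 630 and 645 CPM in the PFC. The log2 fold change was -0.79 (SE 0.16, edgeR adjusted p = 0.00383), the groups did not overlap, and it was called in 13 of 13 alternative analyses. Cbln4 was higher in striatal interneurons, with 15.9, 21.4, 9.85 and 24.5 CPM against 2.86, 7.97, 6.66 and 3.31 CPM. Its log2 fold change was 1.71 (SE 0.49, edgeR adjusted p = 0.0320) from 81 and 9 UMIs, and it was called in 5 of 10 alternatives, with adjusted p-values from 0.00284 to 0.107. Leaving out 1 of 4 libraries (WT 1, Setd1a+/- 1 or Setd1a+/- 2 of the PFC, or WT 1 of the striatum) ended the call, as did DESeq2 (adjusted p = 0.0766).

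The other members tested in interneurons were not called. Their log2 fold changes were 0.44 for Nlgn2 (SE 0.27, adjusted p = 0.340), 0.24 for Nrxn2 (SE 0.19, adjusted p = 0.473), -0.49 for Nlgn1 (SE 0.20, adjusted p = 0.146), -0.11 for Nlgn3 (SE 0.19, adjusted p = 0.781), -0.27 for Cbln2 (SE 0.32, adjusted p = 0.662) and -0.23 for Lrrtm2 (SE 0.29, adjusted p = 0.680), all by edgeR. The summed level of the 3 excitatory neuron markers in interneurons was 469 to 604 CPM in the striatum and 14.3 to 55.8 CPM in the PFC, and that of the 3 D2 MSN markers 141 to 193 and 79.7 to 209 CPM. The classes assigned by marker also differed, as above. Within Sst cells, 98 in the PFC and 99 in the striatum, Nrxn3 was at 582, 925, 787 and 791 CPM in the PFC and 324, 300, 334 and 276 CPM in the striatum, and in unassigned cells at 472 to 677 and 295 to 405 CPM. The tissues did not overlap in either group. The Pvalb and Vip classes did not show this, with pooled Nrxn3 levels of 437 CPM in 12 PFC and 463 CPM in 26 striatal Pvalb cells and of 700 CPM in 53 and 1157 CPM in 11 Vip cells. In Lamp5 cells the pooled level was lower in the striatum, with 422 CPM in 77 PFC and 154 CPM in 13 striatal cells. The Lamp5 library values overlapped (321 to 499 and 80.5 to 581 CPM), the 581 CPM being from 2 cells of striatal WT 1. Cbln4 in Sst cells was at 9.23, 19.3, 11.3 and 0 CPM in the PFC and 20.9, 59.0, 5.86 and 71.2 CPM in the striatum, which overlapped. These class values were not tested, nor was the part of the make-up of the interneurons in the differences of Nrxn3 and Cbln4.

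The other 7 calls were in glial and vascular cells and all were higher in the striatum. In astrocytes, Nrxn3 was at 49.8, 59.1, 49.6 and 95.6 CPM in the striatum and 12.1, 14.7, 8.54 and 24.4 CPM in the PFC (log2 fold change 1.72, SE 0.36, edgeR adjusted p = 0.00460). In microglia it was at 139, 223, 120 and 194 CPM against 5.32, 32.5, 30.4 and 14.6 CPM (log2 fold change 3.20, SE 0.48, edgeR adjusted p = 0.00132). Without WT 1 of the PFC the value in microglia was 2.50 (SE 0.42, edgeR adjusted p = 0.00479). In endothelial cells, the lining of blood vessels, all 5 members tested were called: Nrxn3 (2.94, SE 0.45, adjusted p = 0.00241), Nlgn2 (2.19, SE 0.37, adjusted p = 0.00413), Nrxn2 (2.07, SE 0.38, adjusted p = 0.00591), Nlgn3 (2.41, SE 0.45, adjusted p = 0.00679) and Nlgn1 (3.10, SE 0.60, adjusted p = 0.00763), as log2 fold changes from edgeR. The share of all genes called in endothelial cells is not given here, so these calls cannot be set against it. The levels of these members remained low, such as 12.7, 16.4, 12.1 and 16.4 CPM of Nlgn2 in the striatum against 3.51, 3.98, 2.25 and 2.41 CPM in the PFC. In endothelial cells Nrxn3 and Nlgn2 were called in 13 of 13 alternatives, Nrxn2 in 11 of 13, Nlgn3 in 11 of 12 and Nlgn1 in 10 of 12. Leaving out WT 1 of the PFC ended the calls of Nrxn2, Nlgn3 and Nlgn1 (edgeR adjusted p = 0.0529, 0.0596 and 0.0700), and leaving out WT 2 of the striatum ended that of Nlgn1 (edgeR adjusted p = 0.0600).

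Markers of MSN were higher in the striatal cells of these 3 types, and MSN were annotated only in the striatum. The 3 excitatory neuron markers overlapped between the tissues. They summed to 50.4 to 228 CPM in striatal and 30.1 to 112 CPM in PFC microglia. In endothelial cells the sums were 22.0 to 57.2 and 12.0 to 45.1 CPM, and in astrocytes 20.6 to 74.3 and 14.5 to 95.3 CPM. The 3 markers of D1 MSN and the 3 of D2 MSN all had UMIs in striatal microglia, with summed levels of 870 to 1370 and 692 to 1195 CPM, against 0 to 5.41 and 1.77 to 21.6 CPM in PFC microglia, where Drd1 and Drd2 were at 0. In striatal endothelial cells the D1 MSN markers summed to 107 to 548 CPM against a mean of 0.376 CPM in the PFC, where Drd1 and Tac1 were at 0, and in striatal astrocytes to 146 to 654 against 17.1 to 32.5 CPM. D2 MSN markers summed to 151 to 259 against 25.5 to 27.8 CPM in endothelial cells and 118 to 542 against 0 to 8.14 CPM in astrocytes, with Drd2 at 0 in both PFC types. The Nrxn3 level of striatal microglia was 64.2% of that in droplets with at most 100 UMIs (51.5 to 84.3% over the libraries), and the levels of Penk, Tac1 and Snap25 were 39.8, 46.1 and 69.5% of theirs (50.9 to 103% for Snap25). In striatal endothelial cells, Nrxn3 was at 14.8% of those droplets, Nlgn1 at 24.8%, Nrxn2 at 29.5%, Nlgn2 at 24.3% and Nlgn3 at 23.4%. Beside these, Penk was at 8.54%, Tac1 at 12.4% and Snap25 at 15.9% (10.1 to 24.5%). In striatal astrocytes, Nrxn3 was at 23.8%, beside 12.8% for Penk, 10.5% for Tac1, 17.8% for Ppp1r1b and 12.9% for Snap25.

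Cells with 3 or more UMIs in markers of another class, called mixed cells here, made up 40.59% of 271 striatal microglia and 15.35% of PFC microglia. They made up 12.21% of striatal and 5.06% of PFC endothelial cells. Of interneurons they were 3.65% in the striatum and 4.7% in the PFC, so leaving them out took few interneurons away. Whether that removed RNA of excitatory neurons from interneurons was not tested. With mixed cells left out, 4 of 29 member tests were called, beside 1945 of 42469 tests over all genes. The 4 were Nrxn3 in interneurons, astrocytes and endothelial cells and Nlgn2 in endothelial cells. Their log2 fold changes were then -0.79 (SE 0.16), 1.47 (SE 0.43), 1.97 (SE 0.45) and 1.82 (SE 0.42) by edgeR, against -0.79, 1.72, 2.94 and 2.19 with all cells, so that Nrxn3 in endothelial cells moved most. Nrxn2 in endothelial cells then had a log2 fold change of 1.87 (SE 0.45) and an adjusted p of 0.0533 by edgeR, against 2.07 with all cells, and Nlgn1 and Nlgn3 in endothelial cells, Nrxn3 in microglia and Cbln4 in interneurons no longer passed the count filter. The part of free or neighbouring neuronal RNA in the remaining calls was not tested.

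**Figure D5:**
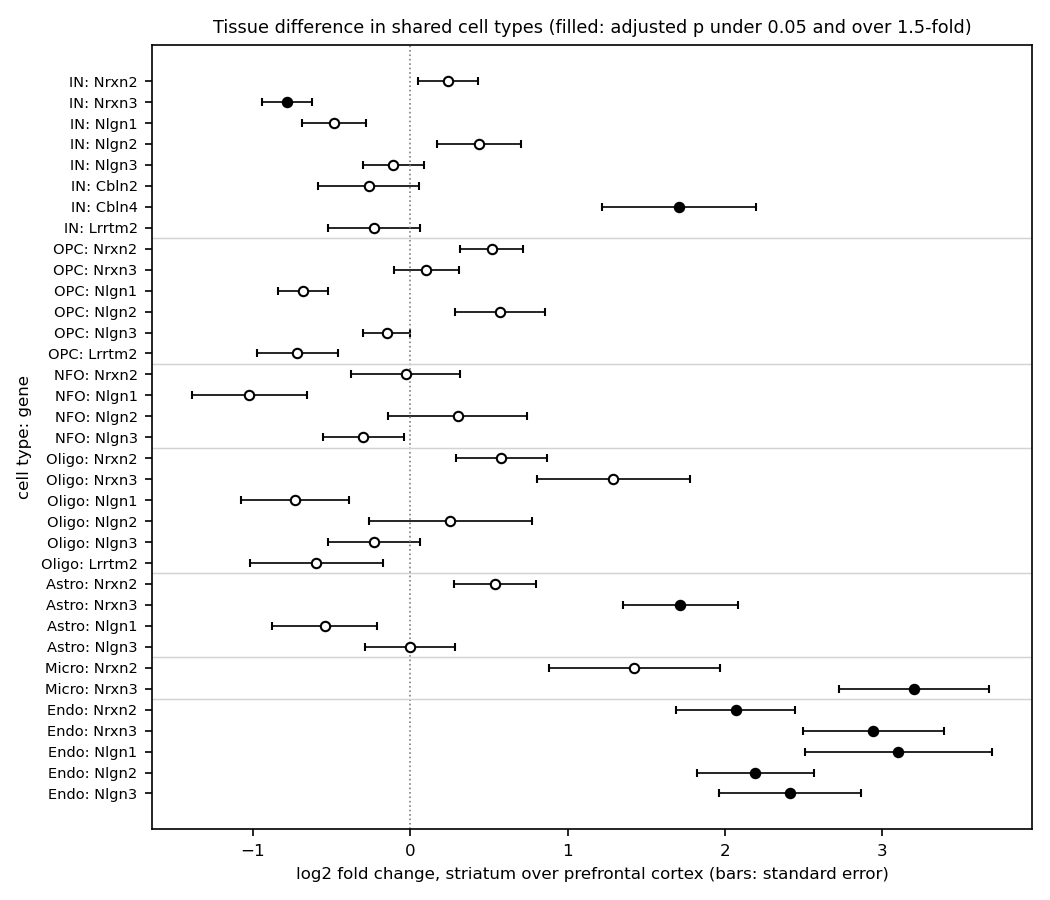
Log2 fold change of the members, striatum over PFC, in the 7 shared cell types, with standard errors from edgeR (8 libraries); filled points passed an adjusted p under 0.05 and a fold above 1.5. The 9 filled points are Nrxn3 in interneurons (-0.79), astrocytes, microglia and endothelial cells, Cbln4 in interneurons (1.71), and Nrxn2, Nlgn1, Nlgn2 and Nlgn3 in endothelial cells.

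No member was called between Setd1a+/- and WT in any cell type or subtype by edgeR, at an adjusted p under 0.05 and a fold above 1.5 in the PFC or above 2 in the striatum. The study names Cbln4 among the genes of neural morphogenesis with changed transcription in the mutant PFC. Its single-cell comparisons tested cells with DEsingle, and it also tested bulk RNA of sorted Foxp2+ nuclei of the PFC with edgeR. Which of these gave the change in Cbln4 is not stated there. Libraries of summed single cells were the replicates here, so its result and the one here are not from like tests. In PFC cell types 0 of 35 member tests were called and 1 had an unadjusted p under 0.05, against 0% and 1.7% over all genes. In the excitatory subtypes the counts were 0 of 43 and 1, against 0% and 1.6%, and in striatal cell types 0 of 54 and 2, against 0.00544% and 2.62%. DESeq2 called 0 members in each of these comparisons and so did the fit with the replicate number as a block, although that fit called 26, 11 and 79 genes over all types where the fit without it called 0, 0 and 4. The difference in genotype effect between the tissues was called for 0 of 37 member tests (0% of all genes) by edgeR and by DESeq2, and 0 members had an unadjusted p under 0.05. Median log2 fold changes of the members were -0.14 in PFC cell types, -0.05 in subtypes and 0.08 in striatal cell types, against 0.00128, -0.00215 and 0.00281 over all genes. The libraries of the genotypes did not overlap in 12 of 35 member tests in PFC cell types, 34.3% against 26.4% over all genes, and in 12 of 54 in the striatum, 22.2% against 31%.

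In the PFC cell type in which each member was highest, the genotypes gave these log2 fold changes, Setd1a+/- over WT. In OPC the values were -0.23 (SE 0.37) for Nrxn2, -0.18 (SE 0.24) for Nlgn1, -0.87 (SE 0.51) for Nlgn2, 0.06 (SE 0.25) for Nlgn3 and -0.56 (SE 0.33) for Lrrtm2. For Nrxn3 in interneurons the value was 0.15 (SE 0.27). The cerebellins in excitatory neurons gave -0.91 (SE 0.41) for Cbln1, 0.21 (SE 0.23) for Cbln2 and 0.99 (SE 0.52) for Cbln4. The 2 WT libraries held 2.91 and 6.41 CPM of Cbln4 and the 2 Setd1a+/- libraries 7.06 and 12.5 CPM, which did not overlap, with an unadjusted p of 0.110 by edgeR. With the replicate number as a block in edgeR, the unadjusted p was 0.00478 and the adjusted p 0.793. Nlgn2 in OPC was at 55.5 and 107 CPM in the WT libraries and 25.7 and 67.0 CPM in the Setd1a+/- libraries, lower in both pairs of the same replicate number. Its unadjusted p by edgeR was 0.126, and 0.0115 with the block, where the adjusted p was 0.997. With the block, 4 member tests in PFC cell types had an unadjusted p under 0.05 by edgeR in place of 1, the others being Nlgn1 in astrocytes and in oligodendrocytes. The share of all genes in that fit is not given here, and the 1.7% above is for the fit without the block.

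In the highest excitatory subtype the values were 0.31 (SE 0.32) for Cbln2 in DL-Tshz2, 0.29 (SE 0.49) for Cbln4 in SL-Cux2, 0.19 (SE 0.29) for Nrxn3 and -0.04 (SE 0.34) for Lrrtm2 in DL-Foxp2. Cbln1 in DL-Nnat did not pass the count filter, and DL-Pou3f1, where Nrxn2 and the neuroligins were highest, had 7 cells in 1 library and was not tested. In the striatum, OPC gave 0.09 (SE 0.19) for Nrxn2, -0.01 (SE 0.23) for Nlgn1, -0.08 (SE 0.25) for Nlgn2 and 0.06 (SE 0.20) for Nlgn3. Interneurons gave 0.18 (SE 0.17) for Nrxn3, 0.64 (SE 0.37) for Cbln2 and -0.11 (SE 0.25) for Lrrtm2, and D2 MSN gave -0.07 (SE 0.27) for Cbln4. The adjusted p-values of these tests by edgeR were all 0.999 or higher.

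The 4 tests with an unadjusted p under 0.05 were each from few UMIs or from glia. Nlgn1 in PFC astrocytes was at 62.7 and 55.0 CPM in the WT libraries, and the Setd1a+/- libraries held 25.6 and 27.1 CPM, from 26, 15, 3 and 10 UMIs, and the genotypes did not overlap (log2 fold change -1.13, SE 0.49, edgeR unadjusted p = 0.0386). Cbln4 in DL-Etv1 was at 1.35 and 6.43 against 11.0 and 19.0 CPM, from 1, 9, 10 and 20 UMIs (1.75, SE 0.68, edgeR unadjusted p = 0.0380). Over 9 alternatives its log2 fold change ran from 1.22 without WT 1 to 3.44 without WT 2. In striatal oligodendrocytes, Nlgn2 was at 10.1 and 11.8 CPM in the WT and 4.28 and 0 CPM in the Setd1a+/- libraries, from 19, 14, 10 and 0 UMIs (-1.40, SE 0.65, edgeR unadjusted p = 0.0452). The 0 came from 67 cells and allows up to 18.9 CPM by counting error, above the other 3 values, and the fitted change ran from -6.56 to -1.22 over 9 alternatives. Nrxn2 in these cells was at 47.8 and 48.2 CPM in the WT and 65.5 and 94.4 CPM in the Setd1a+/- libraries, without overlap (0.60, SE 0.26, edgeR unadjusted p = 0.0331). These came from 90, 57, 153 and 15 UMIs, the 15 being from the library of 67 cells. That library also held 308 CPM of Penk, an MSN gene, in oligodendrocytes against 59.9 to 141 CPM in the others, and its part in either value was not tested. The edgeR adjusted p was 0.999 or higher for each.

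The other genes of this adhesion system were taken as 41 genes in lists of ligands and relatives, receptors, splicing factors and intracellular partners. Between the genotypes, 0 of 144 tests in PFC cell types, 0 of 180 in subtypes and 0 of 219 in the striatum were called by edgeR, with 1, 0 and 4 at an unadjusted p under 0.05. Between the tissues, 27 of 141 tests were called, 23 higher and 4 lower in the striatum, beside 7.37% called, 4.65% higher and 2.72% lower over all genes. With cells holding markers of another class left out, 13 of 125 were called, 9 higher and 4 lower, beside 1945 of 42469 over all genes. Of the 27 calls, 10 of 34 tests were in interneurons, 9 of 22 in endothelial cells, 6 of 8 in microglia and 2 of 17 in astrocytes, and without such cells these became 9 of 33, 2 of 17, 0 of 1 and 2 of 17. The shares over all genes within each of these types are not given here. The MSN markers given above were higher in the striatal microglia, endothelial cells and astrocytes, and the excitatory neuron markers in striatal interneurons, and their part in the remaining calls was not tested.

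The 10 calls in interneurons were 8 higher and 2 lower. The neurexophilin Nxph3 (log2 fold change 4.78, SE 0.64, edgeR adjusted p = 0.000108), C1ql3 (3.21, SE 0.61, edgeR adjusted p = 0.00241), a secreted protein related to cerebellins, and the neurexin ligand Igsf21 (2.52, SE 0.48, edgeR adjusted p = 0.00241) were higher, and the neurexophilin Nxph1 (-0.86, SE 0.18, edgeR adjusted p = 0.00376) was lower. These 4 were called in 13 of 13 alternatives. The scaffold Magi2 was lower (-0.79, SE 0.20, edgeR adjusted p = 0.0169) and was called in 10 of 13, lost without WT 1 or WT 2 of the striatum or WT 2 of the PFC. The postsynaptic scaffolds Shank1 (1.19) and Dlg4 (0.75), the presynaptic receptors Ptprf (1.02) and Ptprs (0.84) and the splicing factor Khdrbs2 (0.86) were higher, with edgeR adjusted p-values from 0.0265 to 0.0447. They were called in 9, 6, 5, 7 and 2 of 13 alternatives. Leaving out WT 1 or Setd1a+/- 1 of either tissue ended all 5 of these calls, and leaving out other libraries ended some of them, with adjusted p-values of up to 0.182. DESeq2 also ended the calls of Dlg4, Ptprf and Khdrbs2, and scaling by library totals that of Khdrbs2. Khdrbs2 was the 1 lost when mixed cells were left out (edgeR adjusted p = 0.0766).

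The members were compared with 10772 genes by the Pearson correlation of mean log2(CPM + 1) over 24 groups of cells, as a description. Groups of a tissue share libraries, and neurons had more UMIs per cell than glia. Nrxn2 was most like Nlgn3 (r = 0.906), followed by Acp1 and Ggt7, and this was the highest value for any pair of members. The genes most like Nrxn3 were Add2 (0.954), Rnf165 and Celf3, and those most like Nlgn1 were Slitrk5 (0.917), Cadm2 and Gria2. Nlgn2 was most like Csmd1 (0.946), Rtn1 and Dpp6, Nlgn3 most like Acp1 (0.914), Tram1l1 and Arxes1, and Lrrtm2 most like Cntn1 (0.940), Plppr5 and Tceal3. For the cerebellins the leading genes were Gm2694 (0.766), Nptx2 and Ypel1 for Cbln1, Gm11549 (0.921), 4930447C04Rik and Syt13 for Cbln2, and Scn9a (0.886), Vstm2l and Gpr83 for Cbln4. Gm2694 overlaps Cbln1 on the other strand. The lowest value for a pair of members was 0.177, between Cbln2 and Cbln4.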

How the data were processed

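UMI counts per gene and droplet were deposited by the authors as raw matrices of all droplets for 8 libraries (10x Genomics 3' chemistry, 4 per tissue). Per the labels, the authors' processing used Cell Ranger 3.0.2, build mm10 and Seurat 3.2.0. Cell types and excitatory subtypes were taken from the authors' deposited annotation. Deposited normalized expression tables were not used, because their gene column holds row numbers. There were 0 columns without a sample. Doublets were not called here; how the authors treated them is not given in the sources used here.

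UMIs were summed per cell type and library in Python 3.11.15. Counts were tested in R 4.3.3 with edgeR 4.0.16 (the quasi-likelihood test after TMM scaling, low counts removed by filterByExpr at 10 UMIs, and p-values adjusted by Benjamini-Hochberg within a cell type across every gene tested) where every library had at least 10 cells of a type. Libraries pool 2 mice, so p-values measure the spread between libraries. The genes and lists were chosen with earlier results of these data known. Levels are reported for all 9 members. Genotype statistics are given for the type, subtype and striatal type where a member was highest and for pairs called or with an unadjusted p under 0.05, tissue statistics for pairs called and for interneurons, and likeness as the 3 highest correlations among genes with at least 500 UMIs. Interneuron classes and overlap of libraries are descriptions. The scripts were tested on simulated data.

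By the study's methods, a biological replicate had 1 WT and 1 Setd1a+/- library, so replicate numbers pair libraries within a tissue. Deviations from the group means of same-numbered libraries had a median correlation of 0.367 over PFC cell types (0.114 to 0.599) and 0.185 over striatal types (0.0973 to 0.395). The alternatives were DESeq2 1.42.0, library totals in place of TMM, genes with at least 1 UMI, the replicate block, adjusted p alone, cells with 3 or more UMIs in markers of another class left out, each library left out, cells weighted equally, and cells thinned to 1000 UMIs.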

Additional observations from a re-analysis of the deposited data

How the results depend on the processing

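No member passed the threshold between genotypes, or for the difference in genotype effect between tissues, in any alternative run, the replicate block included. Of the 9 member calls between tissues, 4 were left when cells with markers of another class were left out. Leaving out 1 library gave 5 to 12, the 5 being without WT replicate 1 of the PFC. DESeq2 gave 8, library totals 9, genes with at least 1 UMI 12 and the replicate block 12. The count over all genes between tissues, 3387, ran from 1901 to 4444 without 1 library, 1945 without mixed cells, 4706 with the replicate block and 6957 with genes of at least 1 UMI. Between genotypes the counts over all genes rose with the replicate block from 0, 0 and 4 to 26, 11 and 79 in PFC types, subtypes and striatal types, with genes of at least 1 UMI to 63, 28 and 110, and without 1 library to 25 to 122, 7 to 306 and 67 to 402. Among the uncalled interneuron differences, 3 changed sign: Cbln2 was 0.10 on the log2 scale without mixed cells, and over the libraries left out Lrrtm2 ranged from -0.48 to 0.24 and Nlgn3 from -0.21 to 0.031. The cause was not tested. Of 27 levels, 25 stayed within 1 SD in every alternative. With each cell weighted equally, Lrrtm2 in striatal interneurons was 37.4 CPM in place of 41.9 and Cbln2 in PFC excitatory neurons 49.4 in place of 40.2. Shares of cells with a UMI moved with thinning for 25 of 27. Each genotype had 2 libraries, with few UMIs of Cbln1 and Cbln4.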
